A study of Homo sapiens with 6 samples.

Results

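The tumour suppressor p53 switches on a broad set of target genes after stress, and 30 of them were examined in cells labelled as endothelial and given lipopolysaccharide (LPS). They were picked by gene symbol from a list of p53 targets, and all 30 were found among the 19755 protein-coding genes measured. After 12 h of LPS, none of the 30 differed from control cells past an adjusted p of 0.05. For 28 of them (93.3%) the 95% interval of the difference lay within a 2-fold change in either direction, against 90% of all genes tested. The exceptions were CDKN1A, which encodes the cell cycle inhibitor p21, and PHLDA3, an inhibitor of the kinase AKT, whose control libraries were far apart. The smallest p among the genes' transcripts belonged to a CDKN1A transcript with no coding sequence, which also stayed short of that threshold.

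In unstressed cells p53 is kept scarce by MDM2, a ubiquitin ligase that marks it for destruction and is itself made from a p53 target gene. Damage to DNA and other stresses free p53 from MDM2. It then binds response elements built from paired half-sites and raises genes that halt the cell cycle, repair DNA, buffer oxidants or start apoptosis. In endothelial cells this response is known after irradiation, drug damage and senescence, whereas LPS is best known to act through TLR4, NF-kB and interferon signalling.

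RNA was sequenced from 3 libraries of cells exposed to LPS at 1000 ng/ml for 12 h and from 3 control libraries of the same time point. The labels name EA.hy926, a hybrid line obtained by fusing an umbilical vein endothelial cell with the lung carcinoma line A549, while the titles also call the cells HUVEC, and which of these they were could not be settled. The genotype field reads WT for controls and LPS-induced for treated cells, and the treatment field reads Sepsis for both, so the groups follow the titles. The labels do not say whether replicates are separate cultures. The p-values therefore reflect only how much these libraries vary, and that variation may be technical.

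Levels are in FPKM, in which the authors scaled fragments to transcript length and to mapped fragments. They summed to between 256047 and 264878 over protein-coding genes, and read depth is not known. The endothelial markers PECAM1, CDH5 and VWF were at 47.5 FPKM or more in every library, while EMCN, another endothelial gene, did not exceed 1.70 FPKM. The 3 smallest p of the endothelial list were those of EMCN (difference −1.12), CLDN5 (0.87) and ROBO4 (0.52), with limma adjusted p = 0.193, 0.197 and 0.255. The epithelial genes EPCAM and CDH1 did not exceed 0.069 FPKM, but the keratin genes KRT7, KRT8, KRT18 and KRT19 lay between 15.7 and 65.7 FPKM. Among leukocyte genes PTPRC and CD3E were at 0, CD14 did not exceed 1.14 FPKM and CD68, a lysosomal protein gene of macrophages, lay between 3.70 and 7.61 FPKM. The fibroblast collagen gene COL1A1 stood at 1277 to 1565 FPKM. The 8 fibroblast and smooth muscle markers summed to 3749.8 to 4276 FPKM in LPS libraries and 3903 to 4237 FPKM in controls, with 2 of them, PDGFRA and LUM, lower at an unadjusted p under 0.05 (differences −0.55 and −0.72, limma adjusted p = 0.263 and 0.324). Of the 10 epithelial and A549 markers, 7 were tested and 5 of these were lower in LPS libraries at an unadjusted p under 0.05 (all genes: 5.26%), none of them past the adjusted threshold. KRT19, AKR1C1 and KRT8 had the 3 smallest p (differences −0.55, −0.53 and −0.32, limma adjusted p = 0.173, 0.339 and 0.351). KRT7 lay the other way without overlap, at 18.8, 20.2 and 32.5 FPKM in LPS libraries and 17.7, 17.4 and 15.9 FPKM in controls. The summed level of all 10 was 99.3 to 123 FPKM in LPS libraries and 138 to 149 FPKM in control libraries, without overlap. The 10 endothelial markers, 3 higher and 1 lower by the same unadjusted rule, summed to 391 to 468 FPKM in LPS libraries and 310.3 to 417 FPKM in control libraries. In bulk RNA, fewer cells of a type and less RNA per cell cannot be told apart, and the part of these markers in the results on p53 targets was not tested.

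The libraries numbered 2 stood apart in these 30 p53 targets, in both groups. LPS 2 was the highest of the LPS libraries for 16 of the 30 genes (53.3%, against 23.9% of all genes tested). Control 2 was the highest of the controls for 19 of the 30 (63.3%, against 26.0% of all). Both held the top place in their group for 10 genes (33.3%, against 8.35% of all): CDKN1A, GDF15, BAX, TP53INP1, RRM2B, FDXR, ZMAT3, GADD45A, DDB2 and PIDD1. The targets' median log2 level in LPS 2 was 0.08 above the mean of the other 2 LPS libraries, where all genes were at a median of −0.06. In control 2 it was 0.11 above the other 2 controls, where all genes were at −0.05. A further 48 p53 targets showed this less. LPS 2 was highest in its group for 15 of them and lowest for 20 (all genes: 23.9% and 42.1%). Control 2 was highest in its group for 17 and lowest for 20 (all genes: 26.0% and 41.1%). The pattern was noticed after the values were seen, so it is a description, and each leading result is also given without both libraries.

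**Figure D1:**
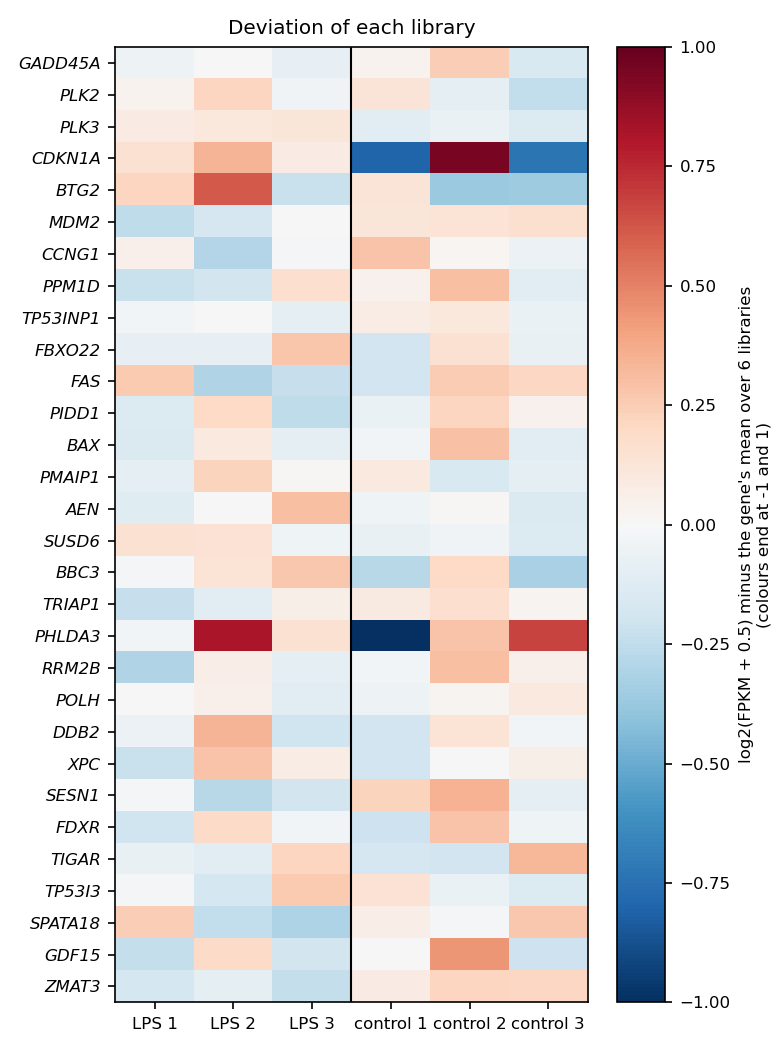
Each cell shows the log2(FPKM + 0.5) of a gene in one library minus the gene's mean over the 6 libraries, with LPS libraries left of the line and controls right of it. Control 2 is highest of the controls in 19 of 30 rows and LPS 2 highest of the LPS libraries in 16, and the strongest colours belong to CDKN1A and PHLDA3 in single control libraries.

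Differences are LPS minus control in log2(FPKM + 0.5), a scale that shrinks differences of weakly expressed genes, and p-values come from limma over 12068 genes with a mean of at least 0.5 FPKM, adjusted by the Benjamini-Hochberg method. All 30 targets passed that filter and were above 1 FPKM in every library. By limma, 0 of 30 passed the adjusted threshold, against 7 of all genes (0.058%), and the lowest adjusted p among the 30 was 0.336. At an unadjusted p under 0.05 there were 2 targets, ZMAT3 and MDM2, both lower in LPS libraries (6.67%), where 5.26% of all genes were lower and 5.13% higher. The LPS and control values did not overlap in 1 target that was higher and 2 that were lower (10.0%), against 17.4% of all genes, 8.68% higher and 8.73% lower. The median difference was −0.03 over the 30 and −0.01 over all genes, with 14 targets positive and 16 negative. All these shares lie near or below those of all genes. For 20 of the 30 the difference was under 0.2 in size.

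**Figure D2:**
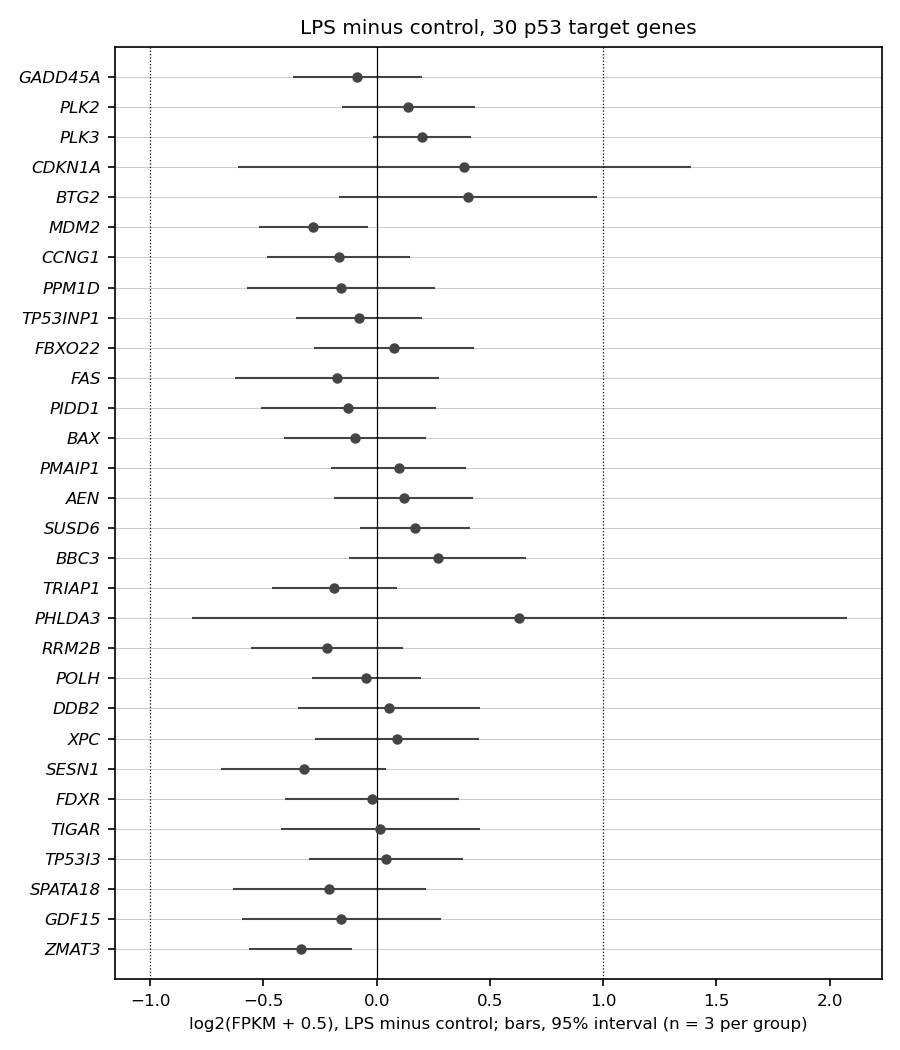
Points give the difference in log2(FPKM + 0.5), LPS minus control, for each of the 30 genes, bars its 95% interval from limma (n = 3 libraries per group), and dotted lines a 2-fold change. The intervals of CDKN1A and PHLDA3 are the ones that cross a dotted line.

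Without both libraries numbered 2, the unadjusted count was 2 higher, CDKN1A and BBC3, and 1 lower, ZMAT3, beside 917 of all 12068 genes, and again none passed the adjusted threshold. The differences of the 3 targets whose groups separated were then −0.35 for ZMAT3, −0.27 for MDM2 and 0.22 for PLK3 (limma adjusted p = 0.64, 0.699 and 0.712). The spread within groups was ordinary, with a median coefficient of variation of 13% in LPS libraries and 12.9% in controls for the 30 genes. Over all genes tested the medians were 13.9% in LPS libraries and 13% in controls. Levels covered a wide range, with PPM1D lowest at 1.87 ± 0.37 FPKM in LPS libraries and 2.14 ± 0.38 FPKM in controls (SD, n = 3 each). The genes with the highest mean levels were CDKN1A and GDF15.

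**Figure D3:**
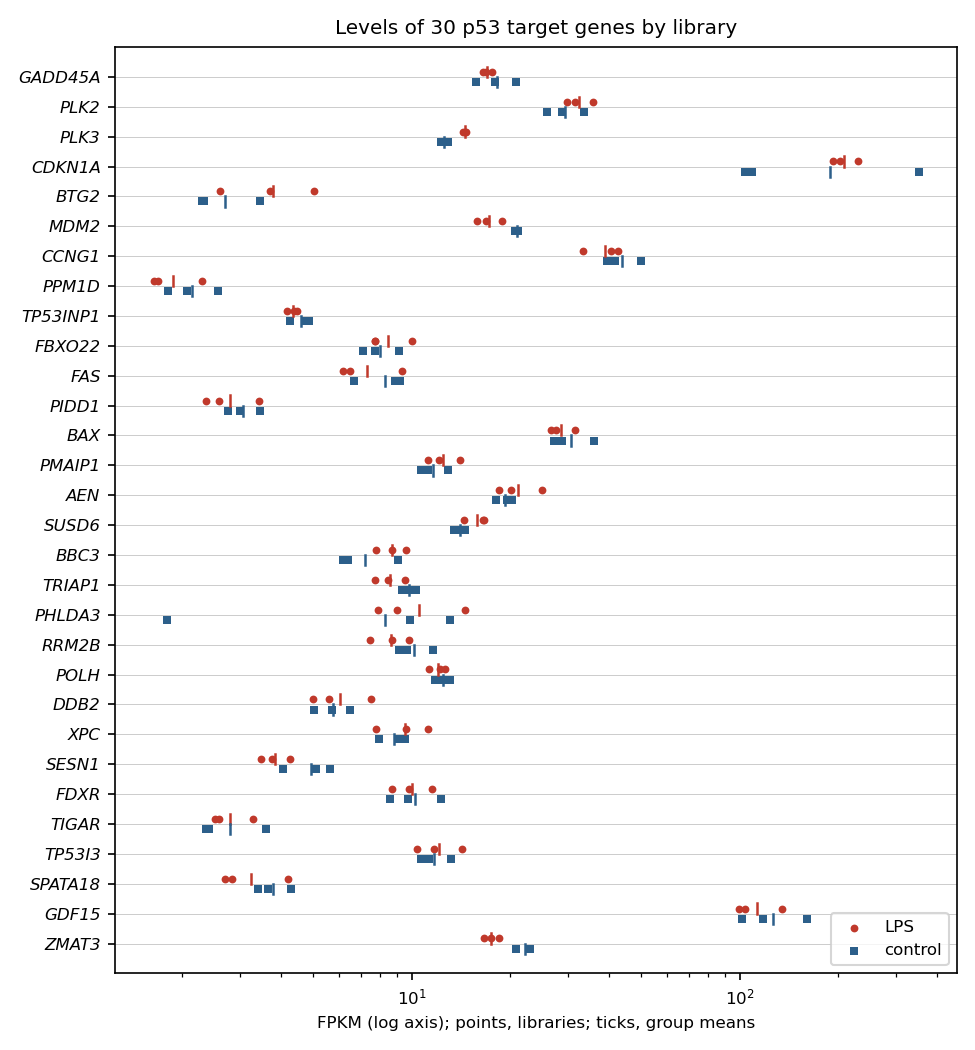
Levels of the 30 genes in FPKM on a log axis, with a point for each library, LPS above control, and a tick for the group mean. The LPS and control points separate for PLK3, MDM2 and ZMAT3, and overlap for the other 27 genes.

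Among the genes that feed back on p53, MDM2 was the one with an unadjusted p under 0.05. Its level was 15.8, 16.8 and 18.9 FPKM in LPS libraries, against 20.6, 20.9 and 21.2 FPKM in controls. Every LPS value lay below every control value, and the controls differed from each other by little. The difference of −0.28 (SE 0.10, unadjusted p = 0.0282) had a limma adjusted p of 0.419. Over the alternatives it lay between −0.35 and −0.22, and its unadjusted p was above 0.05 without LPS 1, LPS 2 or any 1 of the controls. The transcript that carried most of it, the full-length coding MDM2-202, was at 9.92, 12.1 and 12.4 FPKM in LPS libraries and at 12.95, 16.3 and 13.2 FPKM in controls. These values did not overlap either (difference −0.29, limma adjusted p = 0.855).

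The other feedback genes overlapped between groups. The phosphatase gene PPM1D, whose product removes activating phosphates from p53, differed by −0.16. CCNG1, encoding cyclin G1, which brings a phosphatase to MDM2, averaged 38.8 ± 4.88 FPKM in LPS libraries and 43.7 ± 5.67 FPKM in controls. TP53INP1, which helps p53 become phosphorylated, was at 4.34 ± 0.16 FPKM in LPS libraries and 4.61 ± 0.31 FPKM in controls. The ubiquitin ligase subunit gene FBXO22 was at 8.48 ± 1.32 FPKM in LPS libraries and 7.998 ± 1.07 FPKM in controls.

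The 5 growth arrest genes had a median difference of 0.20, and none had an unadjusted p under 0.05 (all genes: 10.4%). PLK3, a polo-like kinase gene of the stress response, was the target whose groups separated upwards. Its level was 14.3, 14.5 and 14.7 FPKM in LPS libraries, against 12.5, 12.9 and 12.3 FPKM in controls. The 3 LPS libraries were tightly grouped above the controls (difference 0.20, SE 0.09, limma unadjusted p = 0.0641, adjusted p = 0.505). The sister kinase gene PLK2 was at 32.3 ± 3.03 FPKM in LPS libraries and 29.3 ± 3.87 FPKM in controls. GADD45A, which restrains the G2 to M transition, was at 16.97 ± 0.54 FPKM in LPS libraries and 18.1 ± 2.55 FPKM in controls. BTG2, an antiproliferative cofactor of mRNA deadenylation, was at 3.78 ± 1.22 FPKM in LPS libraries and 2.69 ± 0.66 FPKM in controls. The values of all 3 overlapped between groups.

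CDKN1A lies on chromosome 6 from 36676460 to 36687339 on the plus strand of GRCh38. Its level was 202, 230.4 and 192 FPKM in LPS libraries, against 104, 352 and 109 FPKM in controls. The LPS libraries were close together, while control 2 stood far above all other libraries and the other controls far below. The difference was 0.39 (SE 0.43, limma adjusted p = 0.789). Without control 2 it was 0.96 with an adjusted p of 0.147, and without both libraries numbered 2 it was 0.89 with an adjusted p of 0.3. Without control 1 it was 0.08 and without control 3 it was 0.12 (adjusted p = 0.966 and 0.98). So the size of the CDKN1A difference depended on which control was left out.

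The gene value is the sum of 8 transcripts, and 5 of them share one identical coding sequence of 492 bases. They differ in their first exon, and CDKN1A-202 and CDKN1A-204 also have a different exon 2. Fragments inside the exons they share therefore carry no sequence that tells them apart. The 3 spliced forms below are shown because the libraries differ in which of them the fragments were assigned to. Each is 15 bases of exon 1 in lower case joined to 15 bases of exon 2 in CAPITALS, from the GENCODE 29 transcript sequences (GRCh38, plus strand).
CDKN1A-201: aggcactcagaggagGCGCCATGTCAGAAC
CDKN1A-203 and CDKN1A-207: gtgtttctgcggcagGCGCCATGTCAGAAC
CDKN1A-208: gctgcctgttttcagGCGCCATGTCAGAAC
Exon 1 ends at 36678798 in CDKN1A-201, at 36678939 in CDKN1A-203 and CDKN1A-207 and at 36676524 in CDKN1A-208, and exon 2 starts at 36684097 in all 4. CDKN1A-207 is annotated as a processed transcript of 2 exons and 616 bases with no coding sequence. It has the same junction as the coding CDKN1A-203, which is 2267 bases long.

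CDKN1A-201, the largest coding form in every library except LPS 2 and control 2, was at 140, 79.2 and 119 FPKM in LPS libraries. In controls it was at 82.9, 104 and 85.2 FPKM. These groups overlapped (difference 0.28, SE 0.23, limma adjusted p = 0.873). CDKN1A-208 was at 181 FPKM in control 2, where it made up 51.4% of the gene, and at no more than 0.021 FPKM in the other 5 libraries. With CDKN1A-208 left out, an alternative chosen after the values were seen, the gene was at 202, 230.3 and 192 FPKM in LPS libraries, against 104, 171 and 109 FPKM in controls. Every LPS value then lay above every control value, with a difference of 0.73 (SE 0.19). Leaving out CDKN1A-208 lowers control 2 from 352 to 171 FPKM and the other libraries by at most 0.021 FPKM. The choice was made with that value known, so no p-value is read from this comparison.

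CDKN1A-203 was at 60.3, 148 and 69.4 FPKM in LPS libraries, against 2.90, 42.7 and 2.57 FPKM in controls. All LPS values lay above all controls (difference 3.49, SE 1.10, limma unadjusted p = 0.0204, adjusted p = 0.800). CDKN1A-207 was at 1.84, 1.14 and 3.21 FPKM in LPS libraries, against 17.1, 23.2 and 20.2 FPKM in controls. This was a clear separation in the opposite direction (difference −3.08, SE 0.33, limma unadjusted p = 0.000108, adjusted p = 0.0741, with adjusted p of 0.0542 to 0.634 over the alternatives). It held the smallest p of any transcript of the 30 genes. Without both libraries numbered 2, the differences were 4.34 for CDKN1A-203 and −2.69 for CDKN1A-207 (limma adjusted p = 0.12 and 0.257).

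Because the 2 forms share their exon 1 junction, their sum was also taken. It was 62.2, 149.6 and 72.6 FPKM in LPS libraries, against 19.95, 65.9 and 22.8 FPKM in controls, and control 2 then lay among the LPS values (exact two-sided permutation p = 0.2). With each form multiplied by its length in kilobases, the sum was 138, 337 and 159 in LPS libraries. It was 17.1, 111 and 18.3 in controls, without overlap. The exact two-sided permutation p was 0.1, the smallest possible with 3 libraries a group. That test could not reach 0.05, so it adds nothing to the lack of overlap. As shares of the gene, CDKN1A-203 made up 29.8%, 64.5% and 36.1% in LPS libraries, against 2.79%, 12.1% and 2.35% in controls. CDKN1A-207 made up 0.910%, 0.496% and 1.67% in LPS libraries, against 16.4%, 6.60% and 18.5% in controls. The shares of both forms separated the groups. With all 8 transcripts multiplied by length in this way, the gene differed by 0.57 (adjusted p = 0.707). The lncRNA gene DINOL, transcribed from the opposite strand within CDKN1A, was at 0 FPKM in LPS libraries and at most 0.028 FPKM in controls.

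**Figure D4:**
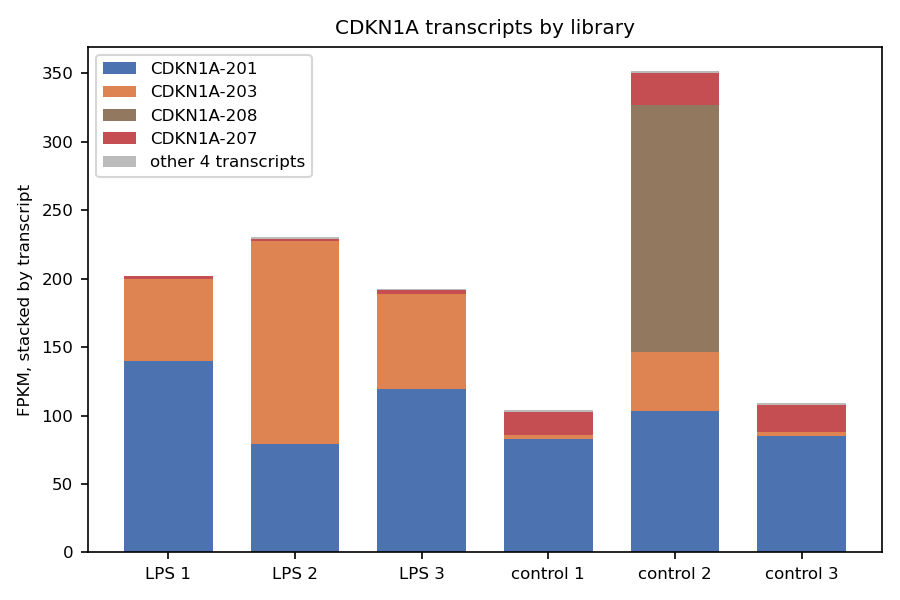
Stacked bars give the FPKM of each CDKN1A transcript in each library, LPS libraries left and controls right, and the bar height is the gene level. The CDKN1A-208 segment of 181 FPKM appears in control 2, CDKN1A-203 is larger in LPS libraries, and CDKN1A-207 is larger in controls.

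None of the 7 death genes had an unadjusted p under 0.05 or groups that separated (all genes: 10.4% and 17.4%). FAS, the death receptor gene on chromosome 10, was at 9.31, 6.15 and 6.49 FPKM in LPS libraries, against 6.66, 9.24 and 8.92 FPKM in controls. A single LPS library, LPS 1, was the highest of all 6, and the groups overlapped (difference −0.18, SE 0.19, limma adjusted p = 0.787). Its deposited span also covers STAMBPL1 and the smooth muscle actin gene ACTA2, and no source used here gives the counting strand, which leaves its level uncertain.

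BBC3, which encodes the BH3-only protein PUMA, was at 7.80, 8.70 and 9.58 FPKM in LPS libraries, against 6.38, 9.06 and 6.17 FPKM in controls. Control 2 lay inside the LPS range while the other controls lay below it (difference 0.27, SE 0.17, limma adjusted p = 0.618). Without both libraries numbered 2 the difference was 0.43 (adjusted p = 0.645). BAX, the pore-forming protein gene that PUMA acts on, was at 26.6, 31.6 and 27.5 FPKM in LPS libraries, against 28.8, 36.1 and 27.1 FPKM in controls. Within each group, library 2 was the highest for BAX (difference −0.10, SE 0.13, limma adjusted p = 0.837). PMAIP1, encoding the BH3-only protein NOXA, averaged 12.5 ± 1.46 FPKM in LPS libraries and 11.6 ± 1.12 FPKM in controls. The nuclease gene AEN, the membrane protein gene SUSD6 and PIDD1, a scaffold for caspase activation, differed by 0.12, 0.17 and −0.13.

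GDF15, a secreted stress cytokine of the TGF-beta family, was the second most abundant of the 30. Its level was 99.6, 135 and 104 FPKM in LPS libraries, against 118, 160.1 and 102 FPKM in controls. Library 2 was again highest in each group, and the groups overlapped (difference −0.16, SE 0.19, limma adjusted p = 0.810). GDF15 is also raised by the integrated stress response, through ATF4 and CHOP. In a list of 12 genes of that response, by limma 0 had an unadjusted p under 0.05 (all genes: 10.4%) and the median difference was −0.18. Its 3 smallest p were those of DDIT4, an mTORC1 inhibitor gene, the transcription factor gene CEBPB and the asparagine synthetase gene ASNS (differences −0.44, −0.23 and −0.25, limma adjusted p = 0.491, 0.557 and 0.714). In those 12 genes control 2 was the highest control for 11, and LPS 2 the highest LPS library for 7 (all genes: 26.0% and 23.9%).

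The lowest unadjusted p among the 30 was that of ZMAT3, a zinc finger RNA-binding protein gene on chromosome 3. Its level was 17.4, 18.4 and 16.6 FPKM in LPS libraries, against 20.8, 22.9 and 22.8 FPKM in controls. All LPS values were below all controls (difference −0.34, SE 0.10, limma unadjusted p = 0.00987, adjusted p = 0.336). Its direction and its unadjusted p under 0.05 were the same in all 15 alternatives recomputed over all protein-coding genes, with differences of −0.38 to −0.30. The coding transcript ZMAT3-201 was at 10.9, 11.5 and 10.9 FPKM in LPS libraries, against 13.1, 18.5 and 19.0 FPKM in controls, again without overlap (difference −0.57, SE 0.18, limma adjusted p = 0.800).

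The 4 repair genes lay between −0.22 and 0.09. RRM2B, the p53-inducible ribonucleotide reductase subunit gene, was at 8.65 ± 1.16 FPKM in LPS libraries and 10.2 ± 1.30 FPKM in controls. The nucleotide excision repair genes XPC and DDB2 differed by 0.09 and 0.05. POLH, the translesion polymerase eta gene, differed by −0.05, but its deposited span reaches over POLR1C and XPO5, so that value is uncertain.

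Of the 4 redox and metabolic genes, SESN1 differed most. This gene for a sestrin, which restrains mTORC1, was at 3.83 ± 0.40 FPKM in LPS libraries and 4.94 ± 0.82 FPKM in controls (difference −0.32, SE 0.16, limma unadjusted p = 0.0754, adjusted p = 0.524). The quinone oxidoreductase gene TP53I3, the ferredoxin reductase gene FDXR and TIGAR, which encodes a fructose bisphosphatase, differed by 0.04, −0.02 and 0.02. SPATA18, known for clearing damaged mitochondrial proteins, was at 3.24 ± 0.82 FPKM in LPS libraries and 3.77 ± 0.45 FPKM in controls. TRIAP1, which supports mitochondrial lipid transfer and survival, was at 8.58 ± 0.92 FPKM in LPS libraries and 9.82 ± 0.49 FPKM in controls. PHLDA3 was at 7.91, 14.6 and 9.02 FPKM in LPS libraries, against 1.79, 9.90 and 13.1 FPKM in controls. Here control 1 was far below the rest. The PHLDA3 difference was 0.63 (SE 0.62, limma adjusted p = 0.761), and it was −0.16 without control 1.

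The 30 genes have 295 listed transcripts, of which 101 were tested among 35727 transcripts. By limma 0 passed the adjusted threshold, against 0.098% of all transcripts, and 9 had an unadjusted p under 0.05, a rule that 5.77% of all transcripts met. Of those 9, 4 were higher and 5 lower in LPS libraries, where 2.85% of all transcripts were higher and 2.92% lower. The groups separated upwards in 9 and downwards in 11 of the 101, against 12.4% of all transcripts, 6.18% upwards and 6.24% downwards. A total of 40 had the opposite sign to their gene, 4 of them with an unadjusted p under 0.05. The matching share over all transcripts was not computed, so these counts are not read as particular to the 30 genes.

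FDXR had a pair of transcripts that separated the groups in opposite directions, beside a gene difference of −0.02. FDXR-201, with 12 exons, was at 7.30, 2.75 and 5.63 FPKM in LPS libraries, against 0.324, 0.063 and 1.31 FPKM in controls. FDXR-219, with 11 exons, was at 0.220, 0.432 and 0.577 FPKM in LPS libraries, against 1.40, 5.83 and 5.16 FPKM in controls. Neither pair of groups overlapped, with differences of 2.51 (SE 0.54, limma adjusted p = 0.494) and −2.19 (SE 0.51, limma adjusted p = 0.554). An assembled BBC3 transcript with no Ensembl identifier was at 1.21, 1.56 and 1.84 FPKM in LPS libraries, against 0.504, 0.538 and 0.675 FPKM in controls, also without overlap (difference 0.92, SE 0.22, limma adjusted p = 0.583).

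The windows upstream of the RefSeq starts were searched for the p53 half-site consensus of 10 bases, which reads as the same consensus on both strands. RefSeq starts were found for 25 of the 30 genes. Of their 36 windows of 250 bases, 5 held a match (13.9%), against 5.57% of 35116 windows of all genes. The matches are shown because their letters fit the half-site consensus next to these starts, in CAPITALS within their flanks, from RefSeq on GRCh38.p14.
PLK2, chr5:58460199-58460228, minus strand: tggcgggacaAGACTTGCTTcccggccacg
SESN1, chr6:109009018-109009047, minus strand: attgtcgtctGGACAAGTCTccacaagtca
FAS, chr10:88991299-88991328, plus strand: cggaactcctGGACAAGCCCtgacaagcca
AEN, chr15:88621296-88621325, plus strand: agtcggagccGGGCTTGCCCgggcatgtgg
FDXR, chr17:74872995-74873015, minus strand: gggcaggagcGGGCTTGCCCt
The genes with such a match differed by 0.14 (PLK2), −0.32 (SESN1), −0.18 (FAS), 0.12 (AEN) and −0.02 (FDXR), in both directions. A pair of half-sites at most 13 bases apart occurred in 0 of the 36 windows and in 9 of all windows. Pairs were counted only within these 250 bases and only where both half-sites matched the consensus. The count of 0 therefore does not show that paired elements are absent from these genes. A match is a description of letters and does not show binding.

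MDM4, the partner of MDM2 that masks the activation domain of p53, was at 4.99, 2.42 and 2.65 FPKM in LPS libraries, against 2.61, 3.81 and 4.93 FPKM in controls. These groups overlapped (difference −0.18, SE 0.29, limma adjusted p = 0.867). Of 23 tested genes in a list of the p53 regulatory circuit, 1 was higher and 3 were lower at an unadjusted p under 0.05 (all genes: 5.13% and 5.26%), none past the adjusted threshold, with a median of −0.07. The 3 smallest p-values were those of PPP1R13L, an inhibitor of p53 also called iASPP (difference 0.57, limma adjusted p = 0.236), and of RPL11 and NPM1, nucleolar proteins that bind MDM2 (−0.40, adjusted p = 0.353, and −0.37, adjusted p = 0.355).

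A further 50 p53 targets were listed, of which 48 were tested. At an unadjusted p under 0.05, 5 were higher and 2 lower (all genes: 5.13% and 5.26%), none past the adjusted threshold, and their median was −0.04. LAPTM5, a lysosomal membrane protein gene, was at 7.91, 7.33 and 10.4 FPKM in LPS libraries, against 6.22, 5.41 and 3.84 FPKM in controls (limma adjusted p = 0.336). The lysosomal fucosidase gene FUCA1 and TRIM22, which is also interferon-induced, differed by 0.44 and 0.32, both with a limma adjusted p of 0.339.

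Another 23 genes are lowered when p53 acts through p21 and the DREAM repressor complex, among them cell division genes. Of these, 22 had a positive difference and the median was 0.22, beside 5771 positive of all 12068 genes. At an unadjusted p under 0.05, 2 were higher and 0 lower by limma (all genes: 5.13% and 5.26%), and none passed the adjusted threshold. The mitotic kinase gene AURKB was at 3.49, 2.89 and 4.26 FPKM in LPS libraries, against 2.09, 1.79 and 1.52 FPKM in controls, without overlap (difference 0.81, SE 0.18, limma adjusted p = 0.224). CDC25A, a phosphatase gene of cell cycle entry, and PRC1, a spindle midzone gene, differed by 0.77 and 0.55 (limma adjusted p = 0.318 and 0.508). LPS 2 was the lowest LPS library for 22 of the 23 and control 2 the lowest control for 17. These libraries were also the lowest of their group for 42.1% (LPS 2) and 41.1% (control 2) of all genes tested.

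Immediate early genes respond within minutes to growth and stress signals. Of 15 tested, 0 were higher and 3 lower by limma at an unadjusted p under 0.05 (all genes: 5.13% and 5.26%), none past the adjusted threshold, with a median of −0.14. The mRNA decay factor gene ZFP36, the phosphatase gene DUSP1 and the transcription factor gene KLF4 had the 3 smallest p (differences −0.73, −0.28 and −0.73, limma adjusted p = 0.351, 0.396 and 0.429). Of 11 long noncoding RNA genes linked to p53 that were found, 7 were tested in the table of all annotated genes. By limma 0 of the 7 passed the adjusted threshold and 0 had an unadjusted p under 0.05, against 0.0502% and 9.21% of all 15944 genes tested there. NEAT1, the scaffold of paraspeckles, was at 0.413, 2.83 and 5.43 FPKM in LPS libraries, against 18.9, 1.98 and 24.4 FPKM in controls. Control 2 was again apart from the other controls, and the groups overlapped (difference −2.02, SE 0.98, limma adjusted p = 0.588). TP53TG1 and GAS5 had the next smallest p (differences −0.17 and −0.15, limma adjusted p = 0.801 and 0.803), and all tested members of that list overlapped.

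LPS and interferon response genes were read from the same libraries for comparison. Of 13 such genes, 10 were higher by limma at an unadjusted p under 0.05 (all genes: 5.13%). LPS 1 was the highest LPS library for 12 of the 13 (all genes: 29.2%). MX1 and ISG15 passed the adjusted threshold, and the list median was 1.47. Both calls were lost without LPS 2, without control 2, without a filter on low values and with the replicate block, where 0 genes in all passed. IL6 lay the other way without overlap, at 7.10, 6.91 and 5.45 FPKM in LPS libraries and 7.68, 9.42 and 7.57 FPKM in controls. That list holds genes known from these data, so its direction is not independent evidence.

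**Figure D5:**
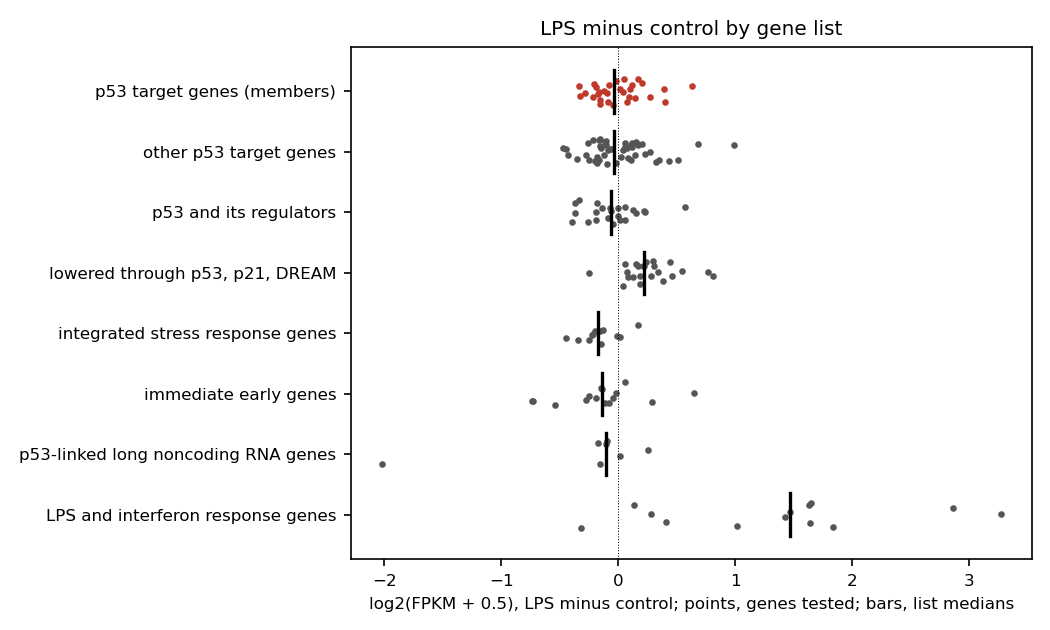
Points give the difference in log2(FPKM + 0.5), LPS minus control, of each tested gene in 8 lists, and bars the list medians. The p53 targets centre on −0.03 and the further targets on −0.04, the DREAM list lies at 0.22, and the LPS and interferon list at 1.47.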

How the data were processed

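The deposited tables hold FPKM calculated by the authors, by HISAT2 and StringTie per the submitters' processing notes, without versions. The notes give the mouse build mm9, but the identifiers and coordinates are human, on GRCh38. Of the 19755 protein-coding genes, 99.7% were found in GENCODE 29, and 14 of the 30 p53 targets had the same span there. The counting strand is not stated in the labels. Beside FAS and POLH, other targets overlap genes on the opposite strand, such as MDM2 (CPM) and PIDD1 (RPLP2). Low FPKM values were whole multiples of a common step in 26.4% to 42.9% of cases (tolerance 0.02), so reads were not recovered and depth is unknown.

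Genes with a mean of at least 0.5 FPKM were compared on log2(FPKM + 0.5) with limma 3.58.1 (R 4.3.3, eBayes with a mean-variance trend), LPS minus control. P-values were adjusted by the Benjamini-Hochberg method over each whole table, and the procedure was tested on simulated data. The gene value of each target equalled the sum of its transcripts within 0.0021 FPKM. Named genes were CDKN1A, MDM2, GDF15, FAS, BBC3 and BAX, targets at an unadjusted p under 0.05 or without overlap, members of other lists past the adjusted threshold or else the 3 smallest p, and MDM4. Not every gene named by this rule is reported here. Transcripts named were those of CDKN1A and the 5 smallest p. The targets, lists and tests were chosen with earlier results of these data known. PHLDA3, SESN1, MDM2-202, KRT7 and IL6 were added after their values were seen. Alternatives were other pseudocounts, filters and scalings, robust eBayes, a replicate block, leaving out libraries and the table of all annotated genes.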

Additional observations from a re-analysis of the deposited data

How the results depend on the processing

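No target passed the adjusted threshold under any alternative, and the lowest adjusted p was 0.147. The count of all genes past it was 7 in the full fit, 0 without a filter, 0 with the replicate block, 0 without both libraries numbered 2, and 0 to 8 when single libraries were left out (the counts of 0 came with 1563, 1451 and 917 genes at an unadjusted p under 0.05, and 1048 to 1214 without control 2 or LPS 2). The block left the count of targets at an unadjusted p under 0.05 at 2 and brought transcripts past the threshold to 0. After each gene's group mean was subtracted from its log2 levels, same-numbered libraries correlated at 0.017, 0.105 and 0.06. Differently numbered ones correlated at −0.084 to 0.023. Each same-numbered value was the highest for its LPS library, though all were small. Whether the numbers pair the libraries was not settled, so the full fit has no pairing and the block is an alternative. Leaving out single libraries moved the targets at an unadjusted p under 0.05 to between 1 and 3, and the noncoding genes to between 0 and 1, with 1 also without both libraries numbered 2. Of 483 target values under alternatives, 24 changed sign, in 14 targets and with sizes of at most 0.16. These were, beside 1 transcript (CDKN1A-208), FDXR 0.0717 (without LPS 1), 0.1154 (control 2) and 0.0147 (both libraries numbered 2), XPC −0.0295 (LPS 2) and −0.0073 (both), and DDB2 −0.1021 (LPS 2), −0.0308 (control 1) and −0.0197 (both). TP53I3 was −0.0772 (LPS 3) and −0.0182 (control 3), AEN −0.0025 (LPS 3), and TIGAR −0.0859 (LPS 3), −0.064 (control 1), −0.0752 (control 2) and −0.0156 (both). FBXO22 was −0.0415 (LPS 3) and −0.0014 (control 1), PHLDA3 −0.1616 (control 1), GDF15 0.0265, BAX 0.0259, GADD45A 0.0151 and CDKN1A-208 0.0202 (control 2). FAS was 0.0123, PMAIP1 −0.0441 and PPM1D 0.0056 (both). With single libraries left out these genes ranged from −0.1315 to 0.1154 (FDXR), −0.0295 to 0.2234 (XPC), −0.1021 to 0.1653 (DDB2), −0.0772 to 0.1405 (TP53I3), −0.0025 to 0.2104 (AEN), −0.0859 to 0.1865 (TIGAR), −0.0415 to 0.1737 (FBXO22) and −0.1616 to 1.1242 (PHLDA3). The ranges were −0.2984 to 0.0265 (GDF15), −0.1769 to 0.0259 (BAX), −0.1816 to 0.0151 (GADD45A) and −4.2316 to 0.0202 (CDKN1A-208). The cause was not tested. With 3 libraries a group and unknown depth, small differences may have been missed, and the smallest detectable difference was not computed. The intervals given are ranges of differences compatible with these libraries and are not detection limits.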
